A study of Mus musculus with 6 samples.

Results

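The genes described here are 48 genes of the transforming growth factor beta (TGF-beta) and bone morphogenetic protein (BMP) pathways, chosen by gene symbol from the 25755 genes measured by bulk RNA sequencing of mouse optic nerve. All 48 were found in the table. They comprised 3 TGF-beta ligands, 5 BMP ligands, 4 activin or growth differentiation factor (GDF) ligands, 6 genes of ligand storage, processing and matrix, 6 type I receptors, 4 type II receptors, 2 co-receptor or decoy receptor genes, 5 secreted antagonists, 5 receptor Smad or co-Smad genes, 4 inhibitory Smad or Smad co-repressor genes and 4 Id transcription regulators. The rule selects them by symbol alone and applies no cutoff on a measured value, but the list was chosen with earlier results of these data known.

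Each of the 6 mice carried the genotype NF1flox/flox;hGFAP-Cre, in which Cre recombinase under the human GFAP promoter removes Nf1 from neuroglial progenitors, so the sham group also lacks Nf1 in that lineage, and a group with intact Nf1 was not analysed here. Sham mice 1 to 3 had an incision without crush and ON-CR mice 4 to 6 had a bilateral optic nerve crush, both at 6 weeks of age, and the nerves were taken at 12 weeks, given in the labels as 3 months. The comparison of ON-CR with sham asks how the RNA of the injured nerve, in which the study looked for glioma, differs from that of the nerve with sham surgery. The labels number each library as 1 mouse.

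Ligands of the TGF-beta family are secreted, often in a latent form held in the matrix by latent TGF-beta binding proteins, and bind a type II receptor that phosphorylates a type I receptor. TGF-beta and activin receptors phosphorylate Smad2 and Smad3, BMP receptors phosphorylate Smad1 and Smad5, and both kinds join Smad4 in the nucleus. Antagonists such as noggin and chordin bind BMPs outside the cell, inhibitory Smads and Ski act inside it, and the Id genes are classical BMP targets. In injured central nervous tissue the family is known for its part in astrocyte scar formation, in the control of microglia and in the differentiation of oligodendrocyte precursors.

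The values are normalized signal per gene, and the 6 libraries held 17414041 to 23620958 estimated reads, each ON-CR library being shallower than each sham library. One read was worth a value of 0.885 to 1.06, so the detection floor of 3 reads lay at 2.66 to 3.18. Nf1 itself, measured over the whole nerve, had a value (mean ± SD, n = 3 each) of 384.6 ± 55.1 in the sham group against 411.3 ± 29.3 after ON-CR. Xist was at 2.14 to 30.9 in sham and 2708 to 6357 in ON-CR libraries, and the Y-linked Ddx3y was at 1291 to 1645 in sham and at 976, 4.19 and 0 in ON-CR mice 4, 5 and 6, so that sex and surgery cannot be told apart. ON-CR mouse 4 held both transcripts at high levels, and whether each library came from a single animal was not tested, so n = 3 counts libraries. The paper's methods give more than 1 mouse per sample for quantitative PCR of optic nerve RNA, and no number of mice per library for sequencing. A library is called a mouse here after the labels. The summed value of 8 oligodendrocyte markers was 1289880 to 1844620 in sham and 628935 to 745099 in ON-CR mice, with 7 of the 8 called lower by limma. The astrocyte markers (6 genes) summed to 170596 to 205862 and 247464 to 280447, with 0 called, and 6 cell cycle genes to 202 to 295 and 642 to 1148, with 4 called higher. Meningeal fibroblast markers summed to 15890 to 19435 in sham and 10735 to 15826 in ON-CR mice with 0 of 6 called, and microglial markers overlapped, at 13196 to 17584 and 16114 to 23975, with 1 of 6 called higher. In bulk tissue, fewer cells of a type and less RNA per cell cannot be told apart. Plasma cell markers summed to 119494 in ON-CR mouse 6 against at most 2899 elsewhere, and airway epithelium markers to 5393 to 7892 in sham mouse 3 and ON-CR mice 5 and 6 against at most 128 elsewhere. The part of these differences in the values of the pathway genes was not tested.

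None of the 48 pathway genes passed an adjusted p of 0.05 by limma on log2(value + 1), where 2.10% of all 25755 genes did (540 genes). The lowest adjusted p was 0.0547, for Tgfb3. At an unadjusted p at or under 0.05 there were 14 pathway genes, 8 higher and 6 lower after ON-CR, which is 29.2% of the 48 against 15.6% of all genes. Of the 48 pathway genes, 45 had a mean value of at least 10, and among all genes with such a mean the unadjusted share was 18.7%. In 10 pathway genes all ON-CR mice were above all sham mice (20.8%, against 10.5% of all genes), and in 7 all ON-CR mice were below (14.6%, against 11.0%). Since the 48 genes were chosen with earlier results of these data known, these shares are a description and no test of the pathway. The median log2 fold change was 0.02 over the 48 genes and 0.03 over all genes, so the pathway as a whole was centred where all genes were, with some members higher and others lower. With 3 mice a group, an exact permutation test cannot give a p below 0.1, and each member whose groups did not overlap had that p.

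**Figure D1:**
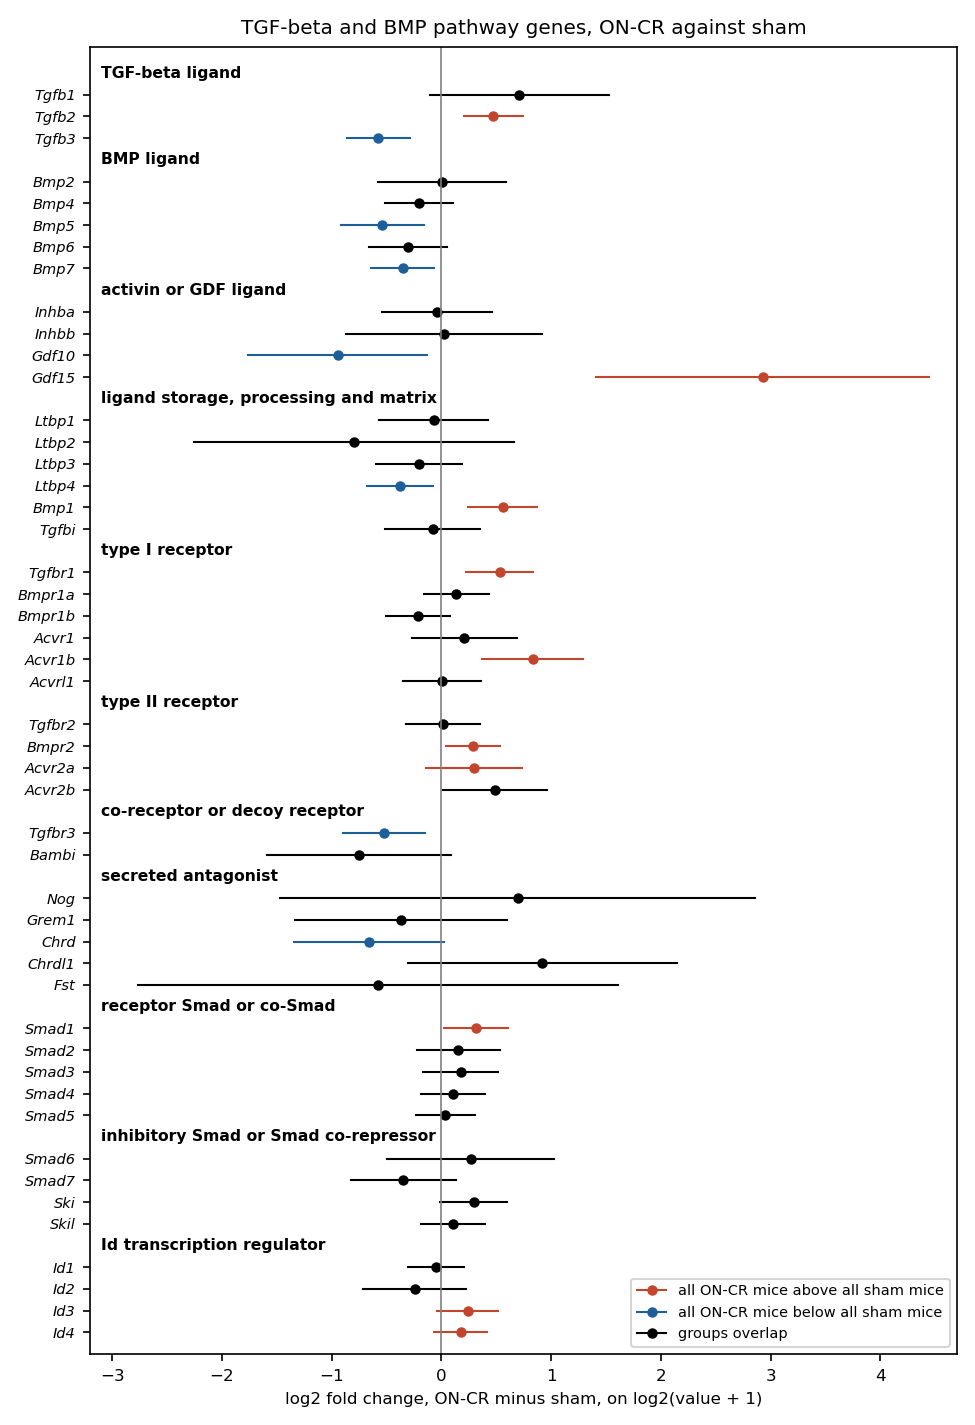
Log2 fold change of ON-CR minus sham (horizontal axis, on log2(value + 1)) with its 95% confidence interval from limma for each of the 48 pathway genes, grouped by role. Red marks the 10 genes with all ON-CR mice above all sham mice and blue the 7 with all below. The type I and type II receptors of this list lie mostly to the right of 0.

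Of the 3 TGF-beta ligands, 0 were called by limma and 2 were at an unadjusted p at or under 0.05, Tgfb2 with higher and Tgfb3 with lower values after ON-CR. Tgfb2 (ENSMUSG00000039239, chr1:186622792-186705989, minus strand), a ligand made by glia and neurons, was measured at 1594, 2035 and 1978 in sham mice 1 to 3, against 2559, 2505 and 2682 in ON-CR mice 4 to 6. Every ON-CR mouse was above every sham mouse. The log2 fold change was 0.47 (SE 0.12, unadjusted p = 0.00284, adjusted p = 0.0826 by limma). Tgfb3 (chr12:86056745-86079041, minus strand), a ligand with the same receptors, had values of 1325, 1167 and 1174 in sham and 912, 715 and 842 in ON-CR mice, so every ON-CR mouse was below every sham mouse. Its log2 fold change was -0.57 (SE 0.13, unadjusted p = 0.00122, adjusted p = 0.0547 by limma). Tgfb1, the isoform made mainly by microglia and other immune cells, was far lower, with values of 25.5, 38.1 and 22.5 in sham and 51.8, 31.5 and 61.3 in ON-CR mice. These groups overlapped and the log2 fold change of Tgfb1 was 0.71 with an SE of 0.37 (adjusted p = 0.388 by limma). Per kilobase of exon, the sham levels of Tgfb3 (361 ± 26.5) and Tgfb2 (323 ± 41.4) lay within their spread of each other, and Tgfb1 was at 5.69 ± 1.64 (SD, n = 3 each). Mouse by mouse, Tgfb2 was at 275, 351 and 342 and Tgfb3 at 392, 345 and 347 in sham mice, so that the pair was apart in sham mouse 1 and close in the others. In ON-CR mice Tgfb2 was at 446 ± 15.6, above Tgfb3 at 243 ± 29.6 in each mouse, and Tgfb1 was at 9.56 ± 3.02.

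A ratio of 2 genes within a library does not depend on how libraries are scaled to each other. The ratio of the Tgfb2 to the Tgfb3 value was 1.20, 1.74 and 1.68 in sham mice and 2.81, 3.50 and 3.19 in ON-CR mice, with means of 1.54 ± 0.297 and 3.17 ± 0.350 (SD, n = 3 each), 2.05-fold apart. The pair was chosen after the values were seen, so the ratio is given as a description with no test. Tgfb2 and Tgfb3 are each overlapped on the other strand by at least 1 gene model that has no entry of its own in the table, and the use of strand in the counting is not given in the sources used here.

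Of the 5 BMP ligands, 4 had a negative log2 fold change (median -0.30), with 0 called by limma and 2 at an unadjusted p at or under 0.05, and under quantile normalization Bmp2 was negative too. Bmp7, the BMP ligand with the largest values here, had values of 1482, 1515 and 1749 in sham and 1301, 1067 and 1357 in ON-CR mice. The groups did not overlap, and the log2 fold change was -0.35 (SE 0.13, unadjusted p = 0.0217, adjusted p = 0.220 by limma). Bmp5, a close relative of Bmp7, had values of 266, 294 and 344 in sham and 230, 182 and 209 in ON-CR mice, again with all ON-CR mice below, at a log2 fold change of -0.54 (SE 0.17, adjusted p = 0.152 by limma). Bmp6, of the same subgroup, was at 684.4 ± 92.0 and 555.0 ± 86.1 (SD, n = 3 each), with overlapping groups and -0.30 as the log2 fold change (adjusted p = 0.392, limma). Of the other subgroup, Bmp4 was at 744.9 ± 99.9 and 643.9 ± 55.5, and Bmp2 at 83.6 ± 17.4 and 84.0 ± 17.7, the smallest difference between group means among the BMP ligands. The 95% confidence interval of the Bmp2 log2 fold change reached from -0.58 to 0.59, a range that holds changes of either sign.

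Gdf15, a divergent family member induced in stressed and injured cells, had the log2 fold change of greatest size among the 48 genes. Its values were 3.18, 11.5 and 2.82 in the sham group against 46.9, 17.8 and 96.6 in the ON-CR group, which corresponds to 3, 13 and 3 against 47, 17 and 93 estimated reads. Every ON-CR mouse was above every sham mouse, but the ON-CR values spread over a wide range and sham mice 1 and 3 were at the floor of 3 reads. The ratio of the group means was 9.21, and the log2 fold change on log2(value + 1) was 2.93 (SE 0.68, 95% confidence interval 1.41 to 4.44, unadjusted p = 0.00153, adjusted p = 0.0607 by limma). Leaving out each mouse in turn gave log2 fold changes of 2.36 to 3.55 and adjusted p from 0.0146, without ON-CR mouse 5 (the lowest of its group), to 0.284, without ON-CR mouse 6 (the highest). Gdf10, a ligand of the BMP3 subgroup, had values of 256, 190 and 220 in sham and 153, 172 and 56.1 in ON-CR mice, the last from ON-CR mouse 6. All ON-CR mice were below the sham mice, with a log2 fold change of -0.95 (SE 0.37, adjusted p = 0.247 by limma), which was -0.44 without ON-CR mouse 6. The activin subunits Inhba (85.4 ± 10.5 and 83.0 ± 7.81) and Inhbb (35.2 ± 13.6 and 35.8 ± 12.1) had group means that differed by less than their SD over 3 mice.

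Among the genes of ligand storage, processing and matrix, 5 of 6 had lower log2 values after ON-CR and Bmp1 was the exception (0 called by limma, 2 at an unadjusted p at or under 0.05), but with libraries scaled to equal totals 3 were lower, Ltbp1 and Tgfbi having changed sign. Bmp1 (chr14:70474558-70520234, minus strand) encodes not a BMP but a secreted metalloprotease that processes procollagens, chordin and latent TGF-beta binding protein. Its values were 325, 298 and 332 in sham and 496, 417 and 500 in ON-CR mice, with no overlap. The log2 fold change was 0.56 (SE 0.14, unadjusted p = 0.00254, adjusted p = 0.0783 by limma). Ltbp4, a latent TGF-beta binding protein of elastic matrix, had values of 766, 852 and 1007 in sham and 711, 651 and 645 in ON-CR mice, all ON-CR mice being below, with a log2 fold change of -0.38 (SE 0.13, adjusted p = 0.202 by limma). Ltbp1 (269.1 ± 45.6 and 260.1 ± 67.9), Ltbp3 (556.1 ± 69.5 and 486.1 ± 98.8) and the scarcely detected Ltbp2 (2 to 16 estimated reads a library) overlapped between groups. Tgfbi, a matrix protein named for its induction by TGF-beta, had values of 899, 678 and 1034 in sham and 819, 648 and 1008 in ON-CR mice. These interleaved, and the log2 fold change of -0.08 (SE 0.19, 95% confidence interval -0.51 to 0.35) turned to 0.05 when libraries were scaled to equal totals.

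**Figure D2:**
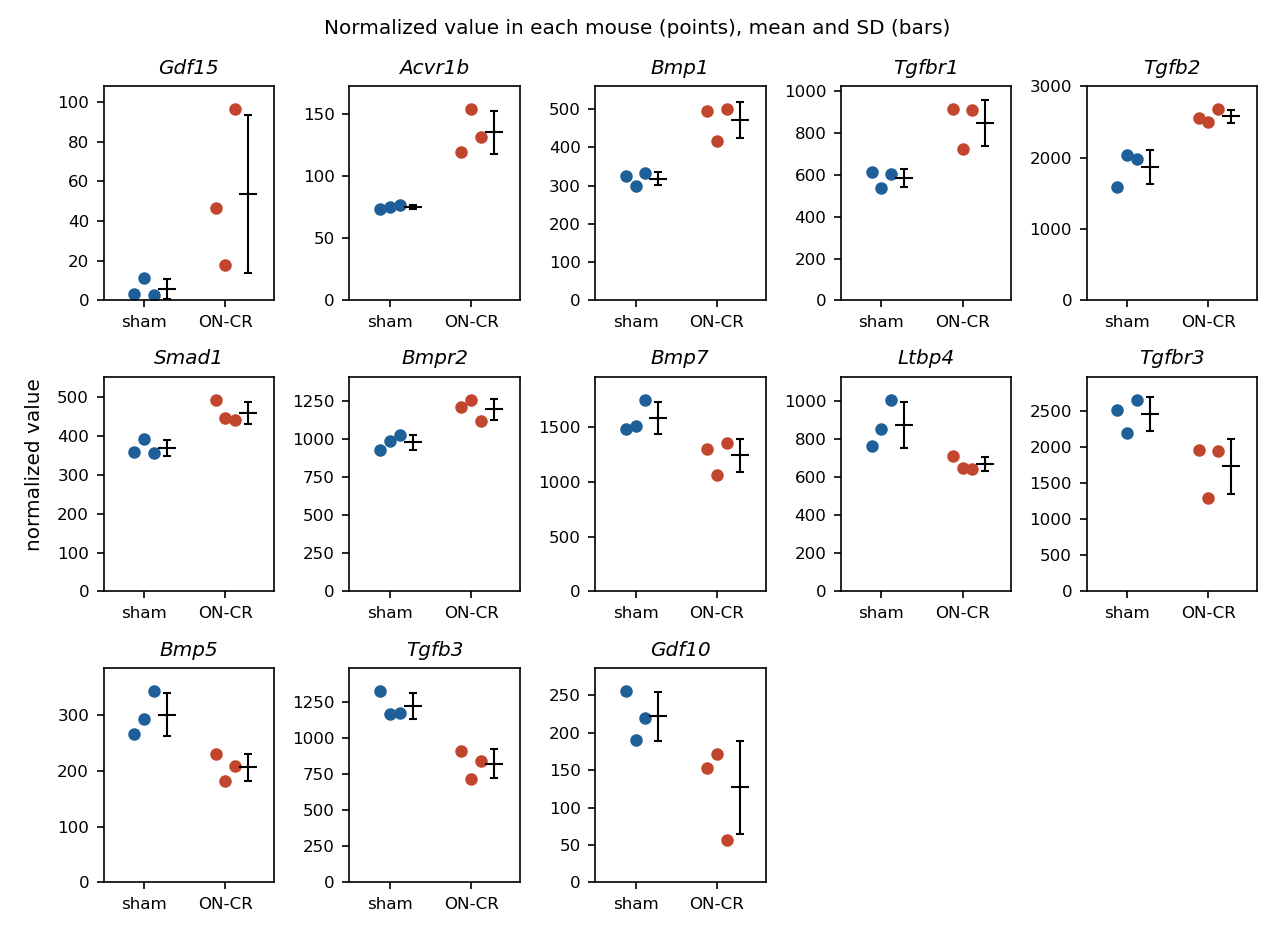
Normalized value (vertical axis, from 0) in each mouse for the 13 pathway genes with an unadjusted p at or under 0.05 and groups that did not overlap, as points, with the mean and SD of 3 mice as black bars, ordered from the most positive to the most negative log2 fold change. Gdf15 and Gdf10 have the widest spread among ON-CR mice relative to their means, and Acvr1b has sham values of 73.2 to 77.0 that lie close together.

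Of the 10 type I and type II receptors in the chosen list, 9 had a log2 fold change above 0 (median 0.25). In 4 of the 10 (40%), all ON-CR mice were above all sham mice. Among all genes, 52.8% had a log2 fold change above 0 and 10.5% had all ON-CR mice above. The same 9 receptors were above 0 under upper quartile, equal-total and quantile scaling, but Acvrl1 and Tgfbr2, both close to 0, were each under 0 in 3 of the 15 alternative settings. No receptor was called by limma, and 4 were at an unadjusted p at or under 0.05. Tgfbr1 (chr4:47353222-47414931, plus strand), the type I receptor for TGF-beta, had values of 612, 537 and 606 in sham and 915, 722 and 910 in ON-CR mice. The groups did not overlap, and the log2 fold change was 0.53 (SE 0.14, unadjusted p = 0.00308, adjusted p = 0.0850 by limma). Acvr1b (chr15:101174067-101213684, plus strand), the type I receptor for activins, had values of 73.2, 75.3 and 77.0 in sham and 120, 154 and 132 in ON-CR mice. Its sham values were the closest together of those described, every ON-CR mouse was above them, and the log2 fold change was 0.83 (SE 0.21, unadjusted p = 0.00239, adjusted p = 0.0763 by limma). Among the type I receptors for BMPs, Bmpr1a had values of 719, 939 and 858 in sham and 984, 871 and 897 in ON-CR mice, which overlapped (log2 fold change 0.14, adjusted p = 0.682 by limma). Bmpr1b, the 1 receptor of the 10 with a negative log2 fold change (-0.21, adjusted p = 0.483 by limma), was at 656.9 ± 43.6 and 567.9 ± 58.2 (SD, n = 3 each). Acvr1 and the endothelial receptor Acvrl1 had log2 fold changes of 0.21 and 0.0036, with overlapping groups.

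Of the type II receptors, Bmpr2, which binds BMPs, had values of 926, 985 and 1024 in sham and 1207, 1256 and 1119 in ON-CR mice. The groups were apart, with a log2 fold change of 0.29 (SE 0.11, unadjusted p = 0.0277, adjusted p = 0.247 by limma). The activin receptor Acvr2a also had no overlap, at 119, 117 and 135 in sham and 141, 183 and 135 in ON-CR mice, where the gap between the highest sham and lowest ON-CR mouse was less than 1 unit, and its unadjusted p was 0.165 by limma. Its partner Acvr2b had a log2 fold change of 0.48 with overlapping groups (unadjusted p = 0.0458, adjusted p = 0.309 by limma). Tgfbr2, the type II receptor for TGF-beta, was at 730.3 ± 53.3 and 745.9 ± 139.5 (SD, n = 3 each), and its log2 fold change was 0.02 with a 95% confidence interval from -0.32 to 0.35. The level per kilobase of the TGF-beta receptor pair in sham mice was 89.6 ± 6.35 for Tgfbr1 and 89.2 ± 6.51 for Tgfbr2, against 130 ± 16.8 and 91.1 ± 17.0 in ON-CR mice.

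Tgfbr3, or betaglycan, is a co-receptor that presents TGF-beta2 in particular to the signalling receptors and can be shed as a soluble trap. Its values were 2514, 2195 and 2654 in sham and 1963, 1294 and 1940 in ON-CR mice. Every ON-CR mouse was below every sham mouse, and the log2 fold change was -0.52 (SE 0.17, unadjusted p = 0.0102, adjusted p = 0.155 by limma). The ratio of the Tgfbr1 to the Tgfbr3 value within a library was 0.244, 0.245 and 0.228 in sham mice and 0.466, 0.558 and 0.469 in ON-CR mice, with means of 0.239 ± 0.00924 and 0.498 ± 0.0523 (SD, n = 3 each), 2.08-fold apart. This pair, too, was chosen after the values were seen and its ratio was not tested. Bambi, a pseudoreceptor that blocks type I receptors, was at 57.99 ± 14.96 and 35.7 ± 16.4 (SD, n = 3 each), with overlapping groups and -0.75 as the log2 fold change (adjusted p = 0.373, limma). Lower values in all ON-CR mice were found for Tgfb3, Bmp5, Bmp7, Gdf10, Ltbp4, Tgfbr3 and Chrd. These stood beside lower sums of the oligodendrocyte and meningeal fibroblast markers. The genes with higher values in all ON-CR mice stood beside higher sums of the astrocyte and cell cycle markers. Of the 6 astrocyte markers 4 were higher and 2 lower, and all 6 cell cycle genes were higher. The part of any of these in the values of the pathway genes was not tested.

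**Figure D3:**
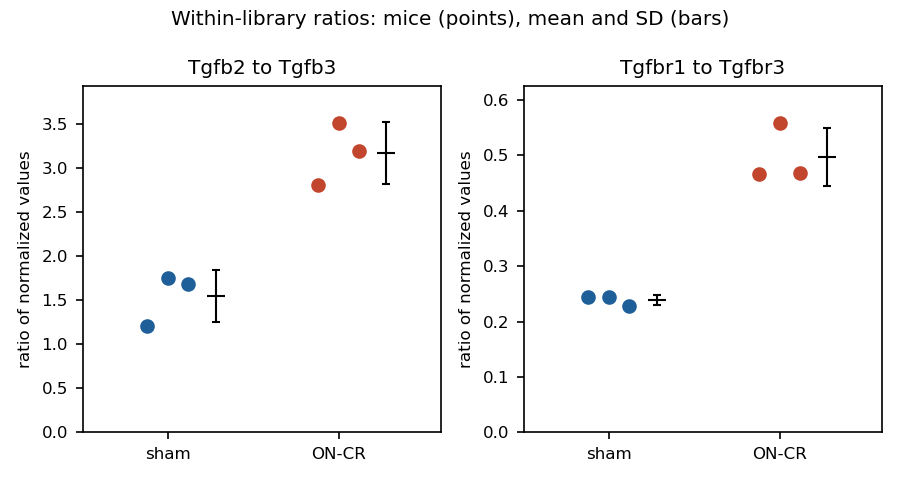
Ratio of normalized values within each library (vertical axes, from 0) for Tgfb2 to Tgfb3 and for Tgfbr1 to Tgfbr3, with 1 point a mouse and the mean and SD of 3 mice as black bars. Sham mice lie at 1.20 to 1.74 and 0.228 to 0.245, and ON-CR mice at 2.81 to 3.50 and 0.466 to 0.558.

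Of the secreted antagonists, Chrd, which encodes the BMP-binding chordin, had the largest mean over all 6 mice. Its values were 55.2, 69.9 and 56.9 in sham and 51.8, 34.6 and 30.1 in ON-CR mice, with ON-CR mouse 4 just under the lowest sham mouse. The log2 fold change was -0.66 (SE 0.31, unadjusted p = 0.0557, adjusted p = 0.333 by limma). Chrdl1, an X-linked chordin relative made by astrocytes, had values of 15.9, 23.9 and 26.3 in sham and 55.8, 15.7 and 81.0 in ON-CR mice, so that ON-CR mouse 5 lay under all sham mice while the other ON-CR mice lay above them (log2 fold change 0.92, adjusted p = 0.467 by limma). Noggin (Nog), gremlin (Grem1) and follistatin (Fst) had few reads, with 0 to 22 estimated reads a library. For Nog the direction depended on the measure, since its mean value was 8.61 in sham and 7.92 in ON-CR mice while its log2 fold change was 0.69 (adjusted p = 0.789 by limma), sham mouse 3 having no read.

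Of the intracellular mediators, all 5 receptor Smad and co-Smad genes had positive log2 fold changes, from 0.04 to 0.32, with 0 called by limma and 1 at an unadjusted p at or under 0.05. That gene was Smad1, a BMP-receptor substrate, with values of 359, 392 and 358 in sham and 494, 448 and 441 in ON-CR mice. Its groups did not overlap, and its log2 fold change was 0.32 (SE 0.13, unadjusted p = 0.0363, adjusted p = 0.280 by limma). Smad5, the other BMP-receptor substrate listed and the Smad with the largest values, had values of 748, 919 and 857 in sham and 865, 861 and 852 in ON-CR mice. These overlapped, with a log2 fold change of 0.04 and a 95% confidence interval from -0.23 to 0.31, and leaving out sham mouse 1 turned it to -0.05. The TGF-beta-receptor substrates Smad2 (0.16) and Smad3 (0.18) and the shared Smad4 (0.11) had log2 fold changes within overlapping groups.

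Among the inhibitors of Smad signalling, Ski, a co-repressor that binds Smads on DNA, had values of 1029, 1301 and 1168 in sham and 1604, 1250 and 1436 in ON-CR mice. ON-CR mouse 5 lay within the sham range, and the log2 fold change was 0.29 (unadjusted p = 0.0560, adjusted p = 0.334 by limma). Its relative Skil had a log2 fold change of 0.11. Smad7 and Smad6, the feedback inhibitors that TGF-beta and BMP induce, had log2 fold changes of -0.35 (621.6 ± 183 and 478.0 ± 74.4) and 0.27 (31.1 ± 6.46 and 38.0 ± 9.60), with overlapping groups and adjusted p of 0.483 and 0.765 by limma.

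The Id genes, which encode dominant-negative partners of basic helix-loop-helix factors, were the most abundant of the 48 per kilobase of exon. Id3 had values of 8760, 8022 and 6876 in sham and 8789, 8780 and 10292 in ON-CR mice. Its groups were separated by a narrow margin between sham mouse 1 and ON-CR mouse 5, and the log2 fold change was 0.24 (SE 0.13, unadjusted p = 0.0857, adjusted p = 0.395 by limma). Id4 also had no overlap, with 1578 to 1861 in sham and 1870 to 1957 in ON-CR mice (log2 fold change 0.18, adjusted p = 0.485 by limma). Id1 was at 1408 ± 135 and 1360 ± 58.3, and Id2 ranged from 4458 to 7663 in sham and from 3955 to 5932 in ON-CR mice, with log2 fold changes of -0.05 and -0.24, the former above 0 under equal-total and quantile scaling. In sham mice the level per kilobase was 4403 for Id3, 2334 for Id2, 1214 for Id1 and 442 for Id4, and this order was the same in ON-CR mice, at 5185, 1946, 1172 and 498.

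**Figure D4:**
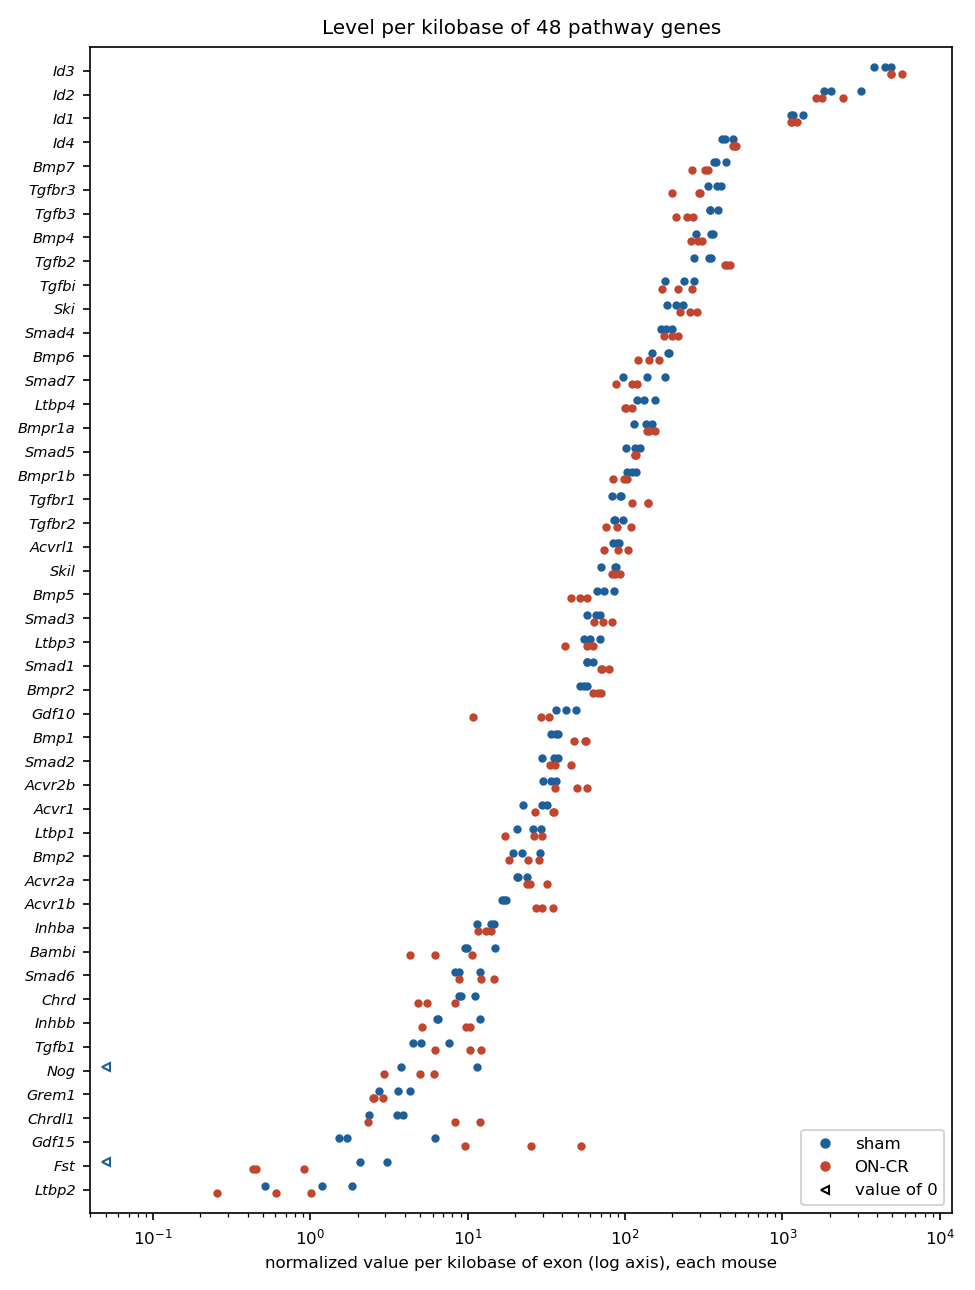
Normalized value per kilobase of exon (horizontal log axis) in each sham mouse (blue) and ON-CR mouse (red) for the 48 pathway genes, ordered by the sham mean, with values of 0 as open triangles at the left edge. The Id genes stand at the top, Ltbp2 and Fst at the bottom, and the groups of most genes overlap.

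A wider list of 85 other pathway genes, written with earlier results of these data known, covered further ligands, matrix regulators, cytoplasmic regulators and response genes, and 75 of them were measured. Of these 75, 1 was called by limma and 11 were at an unadjusted p at or under 0.05, 1 of them higher and 10 lower after ON-CR, with a median log2 fold change of 0.01. These shares, 1.33% and 14.7%, lay near those of all genes, 2.10% and 15.6%. The called gene was Tgif1, a homeodomain co-repressor of Smad complexes, with values of 173, 137 and 147 in sham and 334, 262 and 426 in ON-CR mice. All ON-CR mice were above all sham mice, with a log2 fold change of 1.14 (SE 0.20, adjusted p = 0.0225 by limma). Leaving out 1 mouse at a time gave an adjusted p from 0.00581 to 0.140 for Tgif1, and the call was lost without any one of sham mice 1, 2 and 3 and ON-CR mice 4 and 6, as well as in the fit without a mean-variance trend. A pseudogene, Tgif1-ps, is annotated and has no entry in the table, so reads that belong to it may have been counted for Tgif1.

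Fkbp1a, whose product FKBP12 holds type I receptors inactive, had values of 10735, 11648 and 9586 in sham and 8515, 6984 and 6822 in ON-CR mice. The groups did not overlap (log2 fold change -0.52, adjusted p = 0.0717 by limma). Of 3 annotated Fkbp1a pseudogenes, Fkbp1a-ps1 had an entry of its own, with a largest value of 44.2. Fkbp1a-ps2 and Fkbp1a-ps3 had no entry, so reads that belong to them may have been counted for Fkbp1a. The matrix genes Bgn (-0.39), Dcn (-0.49) and Fn1 (-0.41), for biglycan, decorin and fibronectin, had negative log2 fold changes with adjusted p of 0.214, 0.253 and 0.199 by limma. The 10 genes lower at an unadjusted p at or under 0.05 were Bmp3, Gdf6, Amhr2, Dcn, Bgn, Thbs1, Fkbp1a, Fn1, Col1a1 and Msx1, with log2 fold changes from -1.90 to -0.39. Gdf6, at -1.90, was scarcely detected, with values of 4.24, 0.99 and 9.10 in sham and at most 1.04 in ON-CR mice. It lay under the floor in sham mouse 2 and in every ON-CR mouse, and its groups overlapped. Gdf11, Lefty1, Rgma, Rgmb, Itgav, Itgb8 and Ppm1a, among the largest of the remaining lists, lay between -0.23 and 0.20. Of 12 genes listed as TGF-beta responses and 8 listed as BMP responses, 0 were called by limma in either list, and the median log2 fold changes were 0.09 and 0.11. The largest of each, by mean value, were Fn1 and Tsc22d1 (log2 fold change 0.44) for TGF-beta and Sox9 (0.29) and Hey1 (-0.02) for BMP.

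Which of the 48 genes passed the threshold depended on the processing. Under 15 alternative settings, 5 genes were called at least once, namely Gdf15, Tgfb3, Bmp1, Tgfb2 and Tgfbr1. Scaling to equal totals and sample quality weights called 4 each, a robust limma fit called 2, quantile normalization called 1, and leaving out ON-CR mouse 5 called 3. Over all 25755 genes these settings called 616, 791, 710, 530 and 854 genes in the same order, against 540 as reported. The lowest adjusted p over the settings was 0.0146 for Gdf15, 0.0305 for Tgfbr1, 0.0368 for Tgfb3, 0.0387 for Bmp1 and 0.0410 for Tgfb2, and the highest ran from 0.268 to 0.324. Acvr1b came no lower than 0.0522.

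**Figure D5:**
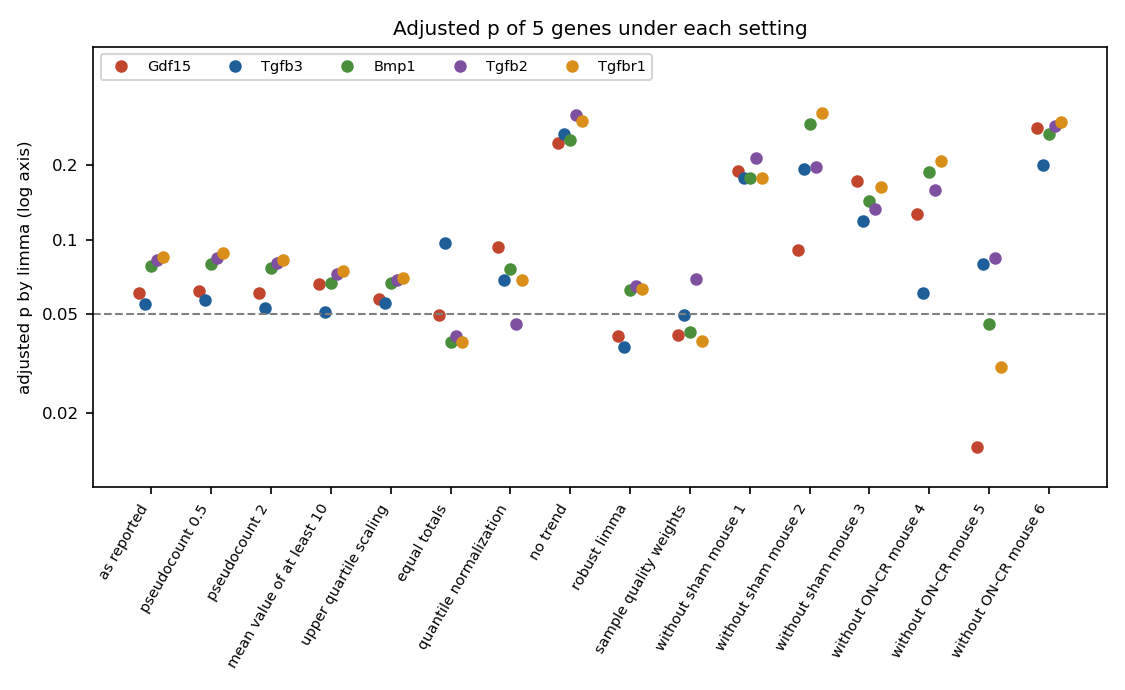
Adjusted p by limma (vertical log axis) of the 5 genes called in at least 1 setting, as reported and under 15 alternative settings (horizontal axis), with a dashed line at 0.05. As reported, all 5 lie between 0.0547 and 0.0850, and without the mean-variance trend all lie above 0.2.

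Promoter sequence was looked at for these 5 genes because each was called in at least 1 alternative setting, a choice made after their values were seen. The RefSeq promoter table of GRCm38.p6 held 3 of them, Gdf15, Tgfb2 and Tgfbr1, and not Bmp1 and Tgfb3. The 250 bases before each start are printed 5′ to 3′ on the strand of the gene, and for a gene with several windows the most upstream is shown. Capitals mark matches, on either strand, to CAGAC, the core bound by Smad3 and Smad4 (GTCTG on the other strand), and to GGCGCC, a GC-rich Smad element that reads the same on both strands.
Gdf15, chr8:70632457-70632706, minus strand: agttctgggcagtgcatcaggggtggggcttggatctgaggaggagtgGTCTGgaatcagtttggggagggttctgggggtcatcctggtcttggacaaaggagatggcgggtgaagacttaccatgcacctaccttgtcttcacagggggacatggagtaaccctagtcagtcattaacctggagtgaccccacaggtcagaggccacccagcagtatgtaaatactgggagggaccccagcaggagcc
Tgfb2, chr1:186705990-186706239, minus strand: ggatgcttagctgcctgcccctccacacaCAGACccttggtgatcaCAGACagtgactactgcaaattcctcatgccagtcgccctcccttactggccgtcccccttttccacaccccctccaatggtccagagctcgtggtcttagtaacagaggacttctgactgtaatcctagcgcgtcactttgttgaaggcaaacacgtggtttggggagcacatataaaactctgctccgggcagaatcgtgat
Tgfbr1, chr4:47352972-47353221, plus strand: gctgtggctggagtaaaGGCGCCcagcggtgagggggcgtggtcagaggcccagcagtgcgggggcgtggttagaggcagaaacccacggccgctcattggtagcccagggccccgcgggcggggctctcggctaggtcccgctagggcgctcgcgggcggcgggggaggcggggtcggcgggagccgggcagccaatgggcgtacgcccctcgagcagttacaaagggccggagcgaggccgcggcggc
Tgfb2 held CAGAC at positions -221 and -204 from its start, Gdf15 held it once on the other strand at -202, and Tgfbr1 held no CAGAC and 1 GGCGCC. Such short words are frequent. Over all 32851 promoter windows of 300 bases in the table, 49.6% held CAGAC and 11.9% held GGCGCC. Of 42 windows of 33 pathway genes, 21 (50%) held CAGAC and 15 (35.7%) held GGCGCC. The windows of the pathway genes were richer in G and C than all windows, with a median of 64.3% against 52.7%. A match is a description of the letters and no site of binding, and no binding was measured here.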

How the data were processed

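RNA of optic nerves from 3 sham and 3 ON-CR mice was sequenced in bulk, and samples were grouped by the labels. The authors aligned and quantified reads with DRAGEN against Ensembl, used an mm10 gene model and scaled the counts by their median normalization (Partek Flow 10.0), and differential expression in the study was tested with DESeq2. The deposited values are a normalized signal per gene and no raw counts. One read was worth a value of 0.885 to 1.06, depending on the library. After division by that value, 70.3% to 72.7% of the values per library were whole reads (within 0.05 read), and the rest were fractions. No count model was therefore run.

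The test was limma (version 3.58.1, R 4.3.3) on the log2 of the value plus 1, fitted with a trend of the variance on mean expression, and p-values over all 25755 genes were adjusted by the Benjamini-Hochberg method. It was checked on simulated data with changes larger than most of those described here, so the check does not cover changes of this size. This scale understates changes of low genes. Floors cover counting error only. P-values rest on the spread between these libraries, with the variance of each gene drawn toward the trend over all genes. The members and lists were chosen with earlier results of these data known. Described with each mouse's value were members at an adjusted p of 0.05, members at an unadjusted p of 0.05 whose groups did not overlap, and the member with the largest mean of each role. Other pathway genes were named if called or among the 2 largest of their list. Tgfb1, Chrdl1, Acvr2a and Id4 were given by mouse or range, and the 10 lower pathway genes and Acvr1c were named, after their values were seen. Coordinates and the exon length behind values per kilobase are from GENCODE M21 (GRCm38). Overlaps with other annotated genes touched 15 of the 48 members. Alternatives were pseudocounts of 0.5 and 2, a mean value of at least 10, upper quartile, equal-total and quantile scaling, no trend, a robust fit, sample quality weights, and leaving out each mouse.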

Additional observations from a re-analysis of the deposited data

How the results depend on the processing

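The 0 calls among the 48 pathway genes became 4 with libraries scaled to equal totals, which moved the median log2 fold change of all genes from 0.03 to 0.15, 1 with quantile normalization, 2 with the robust fit and 4 with sample quality weights, and between 0 and 3 on leaving out each mouse in turn, 3 being without ON-CR mouse 5. The number of calls among the 48 did not move with either pseudocount, the filter on mean value, upper quartile scaling or without the trend. Calls over all 25755 genes moved as well, from 540 to 616 with equal totals, 530 with quantile normalization, 710 with the robust fit and 791 with sample quality weights. Without the trend 7 genes were called. Leaving out each mouse in turn gave from 67 (without ON-CR mouse 6) to 854 (without ON-CR mouse 5). For the other pathway genes the 1 call became 0 without the trend and 2 with the robust fit, and between 0 and 2 on leaving out each mouse in turn. The causes were not tested. The log2 fold change of Tgfbi turned from -0.08 to 0.049 with equal totals and 0.019 with sample quality weights, and over the fits without 1 mouse it spanned -0.25 (sham mouse 2) to 0.083 (ON-CR mouse 5), being 0.056 without sham mouse 3. That of Smad5 spanned -0.046 (without sham mouse 1) to 0.10 (without sham mouse 2). No paired analysis was possible because the mice carry different numbers in the groups. Depth limits Gdf15, Nog, Grem1, Fst, Ltbp2 and Gdf6, which had few reads, and the sensitivity of all tests is limited by 3 mice a group.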
